A study of Mus musculus with 2 samples.

Results

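Basal cells form the outer layer of the prostate epithelium, between the secretory luminal cells and the basement membrane. They are recognised by the keratins Krt5 and Krt14, by the transcription factor Trp63, and by the hemidesmosome and laminin genes that fasten them to the membrane. The barcodes described here were selected on measured keratin UMIs from a single-cell RNA library of the proximal and periurethral region of the mouse prostate, the part next to the urethra. A cell barcode entered if it held at least 5 UMIs (tags that count captured RNA molecules once each) of Krt5, Krt14 and Krt15 together, if these made up at least 0.05% of its UMIs, and if it held fewer than 10 UMIs of the collagens Col1a1, Col1a2 and Col3a1. Barcodes with at least 3 UMIs of Ly6d and at least 1 UMI of Aqp3, Upk1b, Upk3a or Krt13, genes of urothelial and squamous cells, were left out. Of the 3709 barcodes kept in this library, 1655 passed on the keratins, 12 of them failed on collagen and 201 on the Ly6d clause. The remaining 1442 were 38.9% of the library (exact 95% interval 37.3% to 40.5%), of 5704 kept barcodes in the series.

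The study profiled prostate tissue of wild-type male C57BL6 mice, with no treatment named, after dissociation with papain and TrypLE. Beside the proximal library, the series held 1 library made from ventral lobes, from mice of the same strain and by the same dissociation. Numbers and ages of animals, and whether tissue was pooled, are not given in the sources used here. The kit was the 10x Genomics 3' version 3 for proximal tissue and version 2 for ventral tissue, so a difference between regions cannot be told apart from one between kits.

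The deposited matrices held 97817603 UMIs over 4344 proximal barcodes and 49356586 UMIs over 2221 ventral barcodes, and after filtering the kept barcodes had medians of 15266 and 25761 UMIs. No barcode sequence was shared between kept barcodes of the libraries. With 1 library per group there was no replicate and no test was made. Levels are counts per 1e+06 UMIs (CPM) in the summed UMIs of a set of barcodes, with exact 95% Poisson intervals, and shares carry exact Clopper-Pearson intervals. Both cover counting error only. A gene is said to be past 2-fold where the ratio of CPM plus 10 between both sets was at least 2.

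The keratins that chose the members were unevenly spread among them, which is a description and not a finding. Krt15, a keratin of stratified epithelia, was found in 99.9% of the 1442 barcodes, whereas Krt5 was found in 57.1% and Krt14 in 49.3%. The keratin UMIs of a member ranged from 5 to 377 with a median of 48.0. Just inside the UMI threshold, 26 members held 5 or 6 keratin UMIs, and just outside it 17 barcodes held 3 or 4. Just inside the share threshold, 49 members lay between 0.05% and 0.06%, and 48 barcodes lay between 0.04% and 0.05% just outside it. In the mm10 build the genes lie at chr15:101707070-101712898 (Krt5), chr11:100203162-100207548 (Krt14), chr11:100131758-100135928 (Krt15) and chr16:25683763-25892102 (Trp63).

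Trp63, the defining basal transcription factor, was not used by the rule and allowed a check of the label. It was found in 25.7% of the members (23.4% to 28.0%). Luminal RNA, taken as at least 10 UMIs and at least 0.1% of UMIs from the proximal luminal genes Psca and Krt4, was found in 587 members, 40.7% (38.2% to 43.3%). Both measures went with the number of Krt5 and Krt14 UMIs in a barcode. Among the 528 members with no UMI of either keratin, 2.27% held Trp63 (1.18% to 3.94%) and 87.3% held luminal RNA. Among the 555 members with at least 10 such UMIs, 45.0% held Trp63 (40.9% to 49.3%) and 4.50% held luminal RNA.

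The label of basal cells therefore did not hold for all members, and the 1442 are called keratin-selected barcodes below. They were divided, after the data had been seen, into 768 Krt5/Krt14 barcodes with at least 3 UMIs of Krt5 plus Krt14 (53.3%) and 642 Krt15-only barcodes with 0 or 1 (44.5%). The 32 barcodes with exactly 2 went into neither set. Few barcodes lay near the cut: 528 held 0 UMIs, 114 held 1, 20 held 3, 33 held 4 and 40 held 5, while 555 held at least 10. The sets are ranges of a UMI count, and whether they are cell types was not tested. Trp63 was found in 44.5% of Krt5/Krt14 barcodes (41.0% to 48.1%) and in 3.43% of Krt15-only barcodes (2.16% to 5.14%). Luminal RNA was found in 37 of the former and 537 of the latter. Doublets were not called, so barcodes of 2 joined cells are still present.

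**Figure D1:**
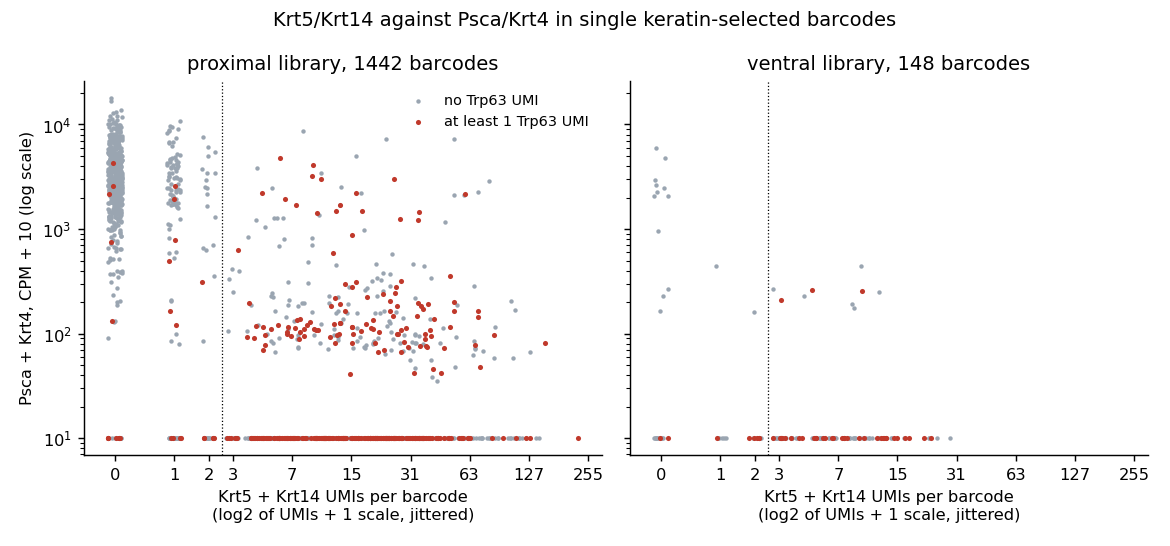
Each point is 1 keratin-selected barcode, with its UMIs of Krt5 plus Krt14 on the horizontal axis and its Psca plus Krt4 level (CPM plus 10, log axis) on the vertical axis, for the proximal and the ventral library; red points hold a Trp63 UMI and the dotted line marks 3 UMIs. In the proximal library the 642 barcodes with 0 or 1 UMI had a median Psca plus Krt4 level of 2912 CPM and the 768 on the right of the line a median of 0.

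The order of the Trp63 shares was the same at equal depth, while the luminal share, which rests on a number of UMIs, was not thinned. The Krt15-only barcodes were the deeper set, with a median of 18714 UMIs against 12130.0. After each barcode was thinned to 5000 UMIs, which left out 21 and 34 shallower barcodes, Trp63 was found in 25.2% of 747 Krt5/Krt14 barcodes (22.1% to 28.4%) and in 1.48% of 608 Krt15-only barcodes (0.679% to 2.79%). At the same depth Trp63 was found in 0.234% of Psca/Krt4 luminal barcodes, a set of 437 that held luminal RNA and did not meet the keratin rule, with an interval of 0.00593% to 1.30% that overlaps that of the Krt15-only barcodes. It was found in 0 of 54 macrophage barcodes, which allows a share of up to 5.56% at 3 counts of the total (the exact interval reaches 6.60%), and at a median depth before thinning of 11922 UMIs. Before thinning, the luminal share was 2.52%. Krt5 at that depth was found in 1.64% of Krt15-only barcodes, in 0.937% of luminal and in 3.70% of macrophage barcodes, where the share in Krt15-only barcodes was held low by the division itself. Krt15 itself was found in 99.2% of thinned Krt15-only barcodes, as the rule required, in 44.3% of luminal barcodes and in 7.41% of macrophages.

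**Figure D2:**
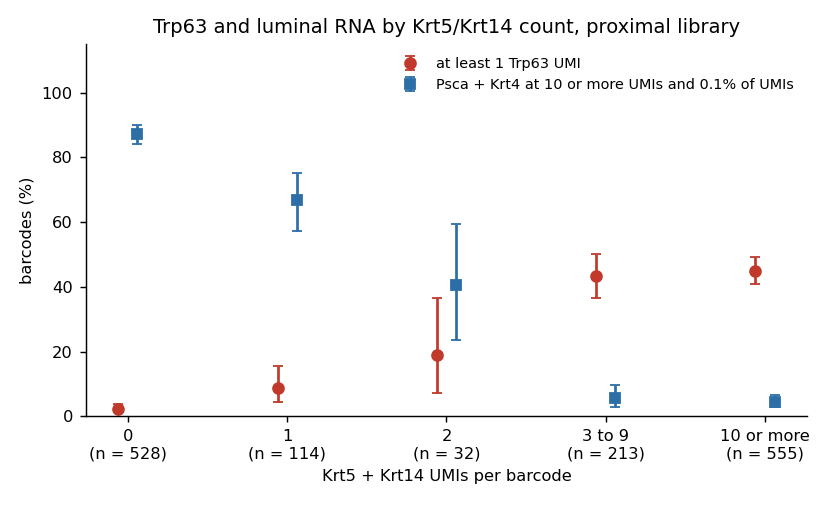
Share of keratin-selected proximal barcodes with a Trp63 UMI and with luminal RNA (percent, vertical axis) by the number of Krt5 plus Krt14 UMIs in the barcode (horizontal axis), with exact 95% intervals. The Trp63 share runs from 2.27% at 0 UMIs to 45.0% at 10 or more, while the luminal share runs from 87.3% to 4.50%.

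Of 18 other basal genes, a list without the keratins of the rule, 14 were past 2-fold higher in Krt5/Krt14 barcodes and 0 lower, with a median log2 ratio of 1.87. Over all 12701 genes with at least 50 UMIs in the 2 sets, 7.11% were past 2-fold, 475 higher (3.74%) and 428 lower (3.37%), with a median of -0.02. Because the division used Krt5 and Krt14, genes that go with them had to differ, and these counts describe the sets without testing them. Against Psca/Krt4 luminal barcodes, 8.89% of 12538 genes were past 2-fold (4.85% higher and 4.04% lower in Krt5/Krt14 barcodes). All 1442 members against the same luminal barcodes gave 1.86% of 13792 genes, 1.65% higher and 0.210% lower, with 11 of the 18 basal genes higher and a median of 1.28.

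Lgals7, a galectin of stratified epithelia, stood at 1134 CPM in Krt5/Krt14 barcodes (1114 to 1155) and at 22.2 CPM in Krt15-only barcodes (20.0 to 24.5). Per barcode its lowest, median and highest levels were 0, 970.0 and 7727 CPM in the former and 0, 0 and 7226 CPM in the latter, so single barcodes of the sets overlapped over most of the range. Krt17, a keratin of basal and stressed epithelia, was at 452 CPM (439 to 465) against 11.5 CPM (9.98 to 13.3). Its median per barcode was 81.1 CPM against 0. Sfn, the 14-3-3 sigma protein of stratified epithelia, was at 2769 CPM (2738 to 2801) against 548 CPM (537 to 559), and Trp63 at 66.7 CPM (61.9 to 71.8) against 2.17 CPM (1.52 to 2.99). Members of the list that did not pass 2-fold were Itga6 and Itgb4, the hemidesmosomal integrins, with log2 ratios of 0.53 and 0.65, the neurotrophin receptor Ngfr at 0.83 and the hyaluronan receptor Cd44 at -0.64.

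Of 27 hemidesmosome and basement membrane genes, which anchor basal cells, 12 were past 2-fold higher in Krt5/Krt14 barcodes and 0 lower, with a median of 0.95. Col17a1, the transmembrane collagen of hemidesmosomes, was at 259 CPM (249 to 269) against 4.74 CPM (3.77 to 5.89). The laminin-332 chains Lama3 and Lamb3 had log2 ratios of 3.20 and 2.88, and Dst, which ties hemidesmosomes to keratin filaments, had 1.66. The basement membrane collagens Col4a1 and Col4a2 were at 78.0 and 40.8 CPM against 3.16 and 2.17 CPM. Of 10 desmosome genes, which join epithelial cells to each other, Pkp1 and Perp were past 2-fold higher and Pkp2 lower (-1.61).

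Of 18 luminal genes other than Psca and Krt4, 11 were past 2-fold lower in Krt5/Krt14 barcodes and 0 higher, with a median of -1.46. Krt8, the main keratin of luminal cells, was at 1079.8 CPM (1060.1 to 1099.8) against 4822 CPM (4789 to 4855) in Krt15-only barcodes and 4887 CPM in luminal barcodes. Its per-barcode median was 502 CPM in Krt5/Krt14 barcodes, 3673 CPM in Krt15-only and 4208 CPM in luminal barcodes. Krt18 and Krt19, its usual partners, were at 806 and 563 CPM against 2022 and 2893 CPM. Clu, a secreted chaperone, was at 449 CPM against 3391 CPM. The pioneer factor Foxa1 was nearly level, at 153, 137 and 157 CPM in Krt5/Krt14, Krt15-only and luminal barcodes.

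The Krt15-only barcodes were then set against the Psca/Krt4 luminal barcodes, with which 537 of the 642 share the criterion of luminal RNA. Of 12777 genes, 28 were past 2-fold, 0.219%, of which 23 were higher (0.180%) and 5 lower (0.0391%) in Krt15-only barcodes. Without members with luminal RNA the number was 234, and with a pseudocount of 1 CPM it was 183. Of the 16 other basal genes with enough UMIs, only Lgals7 was past 2-fold (22.2 against 4.07 CPM). None of 18 luminal, 21 hemidesmosome, 12 EGF-family or 11 Notch genes was. In other lists, 2 of 12 chemokine, cytokine and acute-phase genes were past 2-fold higher, as were 2 of 9 squamous and urothelial genes that the selection had not used, and 0 were lower. Of these, Ivl had a log2 ratio of 1.54, of 0.70 without its richest barcode in each set, and of -0.16 without members with luminal RNA. Genes higher in Krt15-only barcodes beside Krt15 included Clca1, a secreted mucus-associated protein, at 109.6 against 11.8 CPM, the neutrophil chemokine Cxcl2 at 75.9 against 8.42 CPM and Apoe, a lipid carrier, at 132 against 20.9 CPM. Few barcodes carried these: 43 of the 642 held at least 10 Apoe UMIs and 33 held at least 10 Cxcl2 UMIs, and after thinning Apoe was found in 14.1% (11.5% to 17.2%) against 10.1% (7.38% to 13.3%) of luminal barcodes. Genes lower in them included the matrix protein gene Sbspon at 127 against 307 CPM and, just short of 2-fold, the claudin Cldn10 at 228 against 460.0 CPM (log2 ratio -0.98). Krt15 levels, which the rule used, ranged per barcode from 488 to 15878 CPM with a median of 1547 in Krt15-only barcodes and from 0 to 1516 CPM with a median of 93.1 in luminal barcodes.

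**Figure D3:**
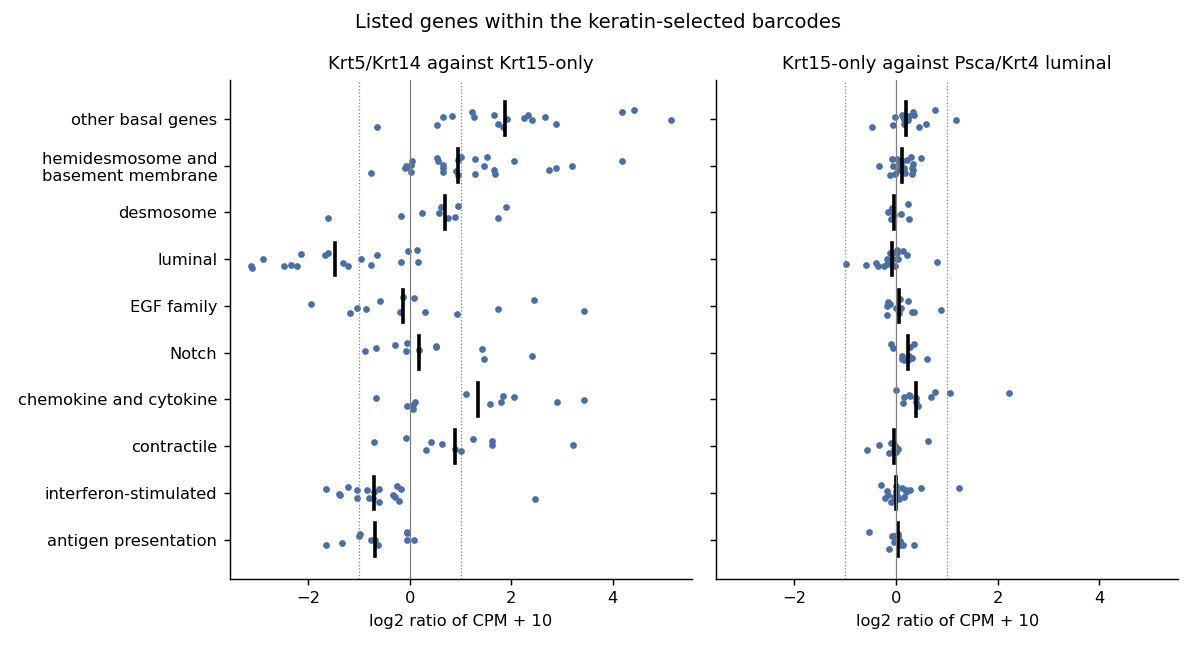
Log2 ratios of CPM plus 10 (horizontal axis) of single listed genes (points) by gene list (rows), for Krt5/Krt14 against Krt15-only barcodes and for Krt15-only against Psca/Krt4 luminal barcodes; bars are list medians and dotted lines mark 2-fold. Medians of other basal genes lie at 1.87 on the left and 0.20 on the right.

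Most genes of the signalling lists did not pass 2-fold between Krt5/Krt14 and Krt15-only barcodes, and those that did are described by role. In the EGF family, the neuregulin ligand Nrg1 was at 613 CPM (599 to 629) in Krt5/Krt14 barcodes against 47.5 CPM (44.3 to 50.9), and Nrg2 at 63.4 against 3.45 CPM. Egfr, the receptor, was at 232 CPM against 62.5 CPM. The ligands Areg and Btc and the neuregulin receptor Erbb3 were lower, Areg at 45.1 against 204 CPM and Erbb3 at 15.2 against 46.8 CPM. Of the 13 family genes with enough UMIs, 3 were past 2-fold higher and 3 lower, with a median of -0.13. Btc, one of the 3, had a log2 ratio of -1.05, and of -0.96 without its richest barcode in each set.

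All 3 Notch pathway genes past 2-fold, of 11, were ligands: Jag2 at 59.7 against 3.10 CPM, Jag1 at 44.5 against 10.4 CPM and Dll1 at 37.9 against 7.43 CPM. The receptor Notch1 was at 76.6 against 81.5 CPM and the target Hes1 at 564 against 391 CPM. In the Wnt list 4 of 17 were higher, the receptors Fzd1, Fzd2 and Fzd6 and the R-spondin receptor Lgr5, while the ligand Wnt4 was lower at 95.8 against 210.1 CPM. Lgr5 was at 32.5 CPM (29.1 to 36.1) against 3.16 CPM (2.37 to 4.12). Of 6 Hedgehog genes with enough UMIs, the ligand Shh and the transcription factor Gli3 were past 2-fold higher, Gli3 at 53.8 against 3.39 CPM. In the TGF-beta and BMP list, 5 of 25 were higher and 0 lower, including the ligands Tgfb1, Tgfb2 and Bmp7, the co-receptor Tgfbr3 and the activin antagonist Fst. Fst was at the limit, with a log2 ratio of 1.01, and at 0.90 without the barcode richest in it in each set.

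Of 30 transcription factors, 7 were past 2-fold higher and 2 lower. Beside Trp63 the higher ones included Snai2 at 43.4 against 1.23 CPM, Sox4 at 298 against 76.5 CPM, Tfap2c at 112 against 29.0 CPM, and Twist2 and Tfap2a with log2 ratios of 1.34 and 1.23. Both lower ones, Barx2 (16.2 against 99.1 CPM) and Elf3 (67.8 against 235 CPM), are epithelial factors. The list median of 0.12 was near that of all genes.

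Of 12 chemokine, cytokine and acute-phase genes, 7 were past 2-fold higher in Krt5/Krt14 barcodes and 0 lower, with a median of 1.34. Lcn2, a siderophore-binding antibacterial protein, was at 155 CPM (147 to 162) against 5.27 CPM (4.24 to 6.48). The leukocyte adhesion receptor Icam1 was at 163 CPM (155 to 171) against 13.2 CPM, the neutrophil chemokine Cxcl1 at 161 against 31.4 CPM and the alarmin Il33 at 39.5 against 3.92 CPM. Cxcl10, listed among interferon-stimulated genes, was at 526 CPM (512 to 539.9) against 87.2 CPM (82.8 to 91.7). The other interferon genes past 2-fold, 6 of 18, were lower, among them Isg15 at 28.5 against 91.2 CPM and Irf7 at 28.8 against 112 CPM, and B2m, the light chain of MHC class I, was at 367 against 941 CPM. Immediate-early genes, which respond to tissue dissociation, had a median of 0.01 with 0 of 20 past 2-fold higher and 2 lower.

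Apoe and Dcn were among the genes with the highest ratios. Apoe was at 5332 CPM (5288 to 5376) against 132 CPM (127 to 138), with per-barcode medians of 4729 and 0 CPM. Dcn, a small proteoglycan best known from fibroblasts, was at 1363 CPM (1340.5 to 1385) against 48.2 CPM (45.0 to 51.6) and was found in 84.8% of Krt5/Krt14 barcodes, in 20.6% of Krt15-only and in 16.9% of luminal barcodes, the last at a median depth of 20521 UMIs. The 14 listed fibroblast genes summed to 1483 CPM, of which Dcn made up 1363 CPM, and the collagens that the rule limited stood at 1.89 CPM (Col1a1), 0.568 CPM (Col1a2) and 2.65 CPM (Col3a1). Of the 11 fibroblast genes the rule did not use, 3 had enough UMIs to compare and 2 of these, Dcn and Sparc, were past 2-fold higher. Macrophage genes summed to 14.9 CPM, against 13178 CPM in macrophage barcodes. No barcode held more than 0.910% of the Apoe UMIs or 0.882% of the Dcn UMIs of the set.

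Some levels rested on 1 barcode. Of 11 contractile genes 4 were past 2-fold higher, Tpm2, Tagln, Acta2 and Myl9. With a mitochondrial limit of 5%, Acta2 turned from a log2 ratio of 1.61 to -0.18. Without the richest barcode for the gene in each set, 109 of 125 listed or named genes past 2-fold between Krt5/Krt14 and Krt15-only barcodes were still past it, and Acta2, Tagln and Myl9 were not. A single barcode held 372 of the 426 Acta2 UMIs (87.3%), 174 of 285 Tagln UMIs (61.1%) and 125 of 168 Myl9 UMIs (74.4%). Tpm2, a tropomyosin, was spread over 418 barcodes with 10.9% in the top one and was at 157 CPM (149.9 to 165) against 8.08 CPM (6.79 to 9.54). Likewise, 1 Krt15-only barcode held 4236 of 4381 Hbb-bs haemoglobin UMIs, and 1 held 73.2% of the Sbp UMIs of that set. Secretory products summed to 0.255% of UMIs in Krt5/Krt14 barcodes, 0.720% in Krt15-only barcodes and 11.7% in the other kept barcodes of the library. Sbp, a ventral secretion, was at 1001 CPM in Krt5/Krt14 barcodes and 1100.5 CPM in macrophages, so it was not above the level in macrophages.

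Clustering of the 1442 barcodes gave 6 sub-clusters, 3 mostly of Krt5/Krt14 barcodes and 3 mostly of Krt15-only barcodes. Their leading genes define them and are given as description. Counts of listed genes highest in a sub-cluster are also description, because the share of all genes highest in each was not counted. Among the 6, sub-cluster 1, with 381 barcodes, of which 87.1% were Krt5/Krt14, was led by Scpep1, Rgs16, Dcn, Cxcl1 and Fmod. Sub-cluster 4, with 259 barcodes (93.8%), was led by Pde4b, Krt14, Krt17, Pde10a and Krt16. Sub-cluster 5, with 176 barcodes (92.0%), was led by Grp, Anxa8, Igfbp2, Aqp3 and Tm4sf1. Sub-clusters 2, 3 and 6 held 300, 262 and 64 barcodes, with luminal RNA in 84.7%, 91.2% and 98.4%, and were led by Msmb and Pate14, by Clca1 and Upk1a, and by Sbsn and Fgfbp1. In sub-cluster 2, 1 barcode held 66.6% of the Pate14 UMIs and 1 held 41.8% of the Msmb UMIs.

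All 3 sub-clusters of Krt5/Krt14 barcodes held Krt5 and Trp63. Trp63 was found in 52.5% of sub-cluster 1 (47.3% to 57.6%), 38.2% of sub-cluster 4 (32.3% to 44.4%) and 30.1% of sub-cluster 5 (23.4% to 37.5%), at median depths of 9897, 12920.0 and 14594 UMIs, so the shallowest held it most often. Krt5 was at 525, 487 and 906 CPM in sub-clusters 1, 4 and 5, and Krt14 at 991, 1684 and 499.9 CPM. The chemokine, cytokine and acute-phase list summed to 2751, 2249 and 646 CPM in sub-clusters 1, 4 and 5, with 8 of 12 genes highest in sub-cluster 1, and to 1238 CPM in sub-cluster 3, where Cxcl2 was highest (181 CPM). In sub-clusters 1, 4 and 5, Cxcl10 was at 894, 591 and 22.0 CPM, Cxcl1 at 338, 124 and 6.89 CPM, Dcn at 2124, 1861 and 79.5 CPM and Apoe at 7256, 7229 and 1475 CPM. Summed immediate-early genes stood at 18805, 11565 and 8013 CPM in the same order, and whether dissociation has a part in the inflammatory levels was not tested.

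Desmosome genes were highest in sub-cluster 5, 9 of 10 of them, with sums of 895, 1579.5 and 2713 CPM in sub-clusters 1, 4 and 5. No share over all genes stands beside this or the following counts. The hemidesmosome and basement membrane list was divided, with 8 of 27 genes highest in sub-cluster 1, 8 in sub-cluster 4 and 7 in sub-cluster 5. In the same order Col4a1 was at 84.8, 132 and 17.2 CPM and Dst at 788, 1157 and 1084 CPM, with Sfn at 826, 2817 and 5766 CPM, Col17a1 at 101, 235 and 518 CPM and the collagen receptor subunit Itga2 at 8.02, 28.3 and 166 CPM. Of 13 squamous and urothelial genes, genes of the rule included, 5 were highest in sub-cluster 5, and the list summed to 1939.9 CPM there and to 2544 CPM in sub-cluster 6. The urothelial gene Upk1a was at 16.2 CPM in sub-cluster 5 and at 385 and 269 CPM in sub-clusters 3 and 6. In sub-clusters 1, 4 and 5, the keratin Krt6a was at 6.47, 38.4 and 263 CPM and Ivl, a cornified envelope protein, at 0.776, 3.18 and 243 CPM. Few barcodes carried Ivl: 9 of sub-cluster 5 held at least 10 UMIs, 1 of them 252 of its 707 UMIs, and without that barcode the level was 158 CPM. Luminal RNA was present in 25 of its barcodes, 14.2%, and Psca was at 642 CPM against 45.3 and 65.3 CPM. The Notch ligands Jag2 and Dll1 were highest in sub-cluster 1 (99.1 and 61.3 CPM), and Nrg1 and Lgr5 in sub-cluster 4 (848 and 58.6 CPM).

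**Figure D4:**
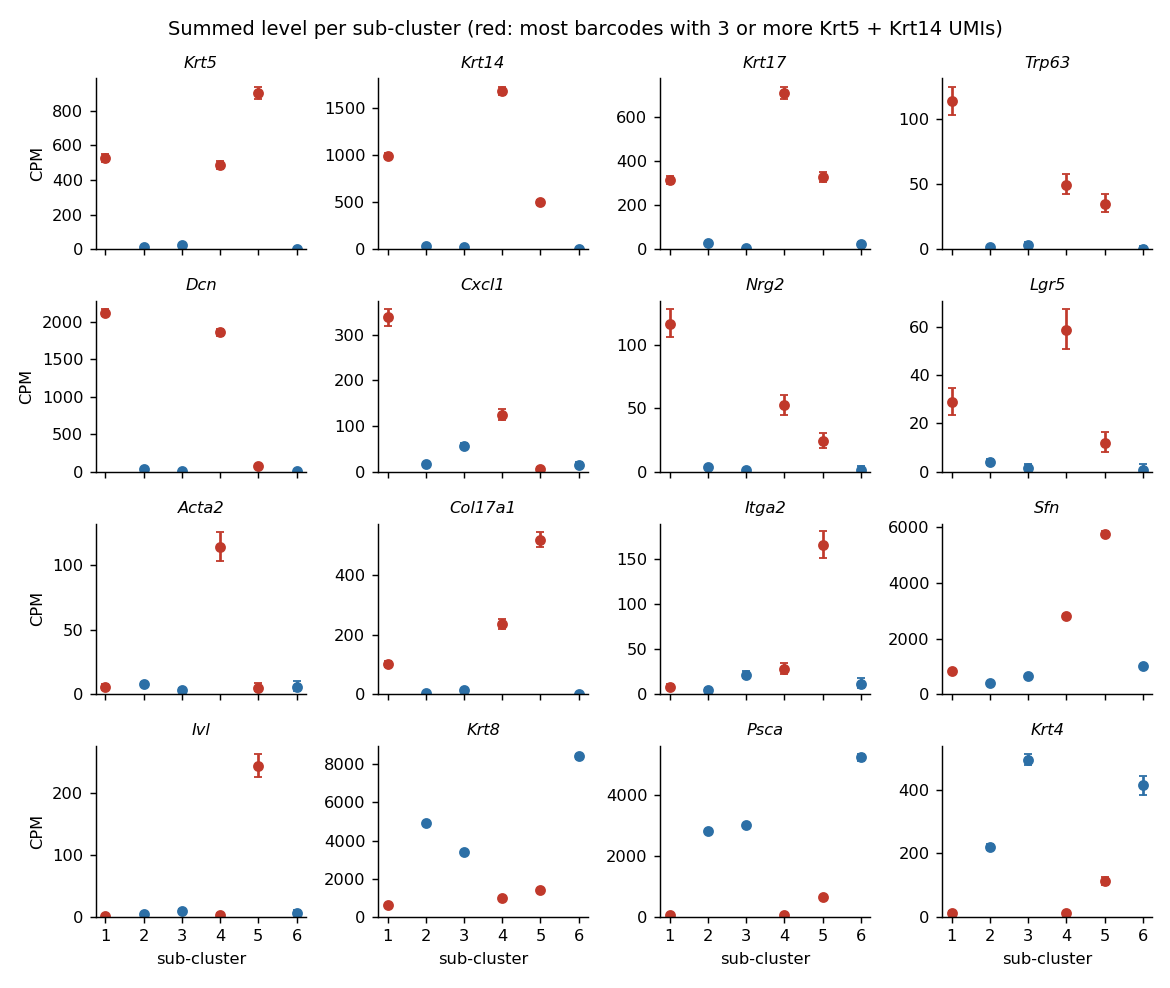
Level of 16 genes (CPM, vertical axes starting at 0) in the 6 sub-clusters of the keratin-selected barcodes, with exact 95% Poisson intervals; red points are sub-clusters 1, 4 and 5, which hold mostly Krt5/Krt14 barcodes. Trp63 is at 114, 49.7 and 35.1 CPM in sub-clusters 1, 4 and 5, and Col17a1 at 101, 235 and 518 CPM.

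Variation from barcode to barcode was measured as variance over mean after thinning to 5000 UMIs, which left out 58 members. Of 5391 genes, 484 had a value over 2. Secretory products led over all members, but 1 barcode set the value of Sbp (266, and 2.07 without its richest barcode) and of Spink1 (133, and 1.88). Without the richest barcode for the gene, Msmb stood at 102, Defb50 at 79.4 and Apoe at 33.8. Within the 747 thinned Krt5/Krt14 barcodes the 15 most variable genes included Apoe at 21.1, the calcium-binding protein gene S100a6 at 18.5, Sfn at 14.6 and the immediate-early gene Fos at 13.6, and these stood at 20.6, 17.8, 14.2 and 12.9 without their richest barcode. Rftn2, which led that list at 78.9, had 90.6% of its thinned UMIs in 1 barcode and stood at 0.989 without it. Fst stood at 15.5, and at 4.76 without its richest barcode. Few barcodes held several G2/M genes: at least 4 of 12 were found in 3 of 768 Krt5/Krt14 barcodes (0.391%, 0.0806% to 1.14%) and in 13 of 642 Krt15-only barcodes (2.02%, 1.08% to 3.44%), with 9 of 437 (2.06%) in luminal barcodes. The Krt15-only set was deeper, and these shares were not thinned. Summed levels ran the other way: 24 proliferation genes stood at 2257 CPM in Krt5/Krt14, 1519.8 CPM in Krt15-only and 1399.9 CPM in luminal barcodes. The median log2 ratio of that list, Krt5/Krt14 against Krt15-only, was -0.07.

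The barcodes left out by the Ly6d clause had passed the same keratin and collagen limits as the members. To compare like with like, Krt5/Krt14 members were set against left-out barcodes with at least 3 UMIs of the same keratins. Of 10659 genes, 222 were past 2-fold, 2.08%, 59 higher in the members (0.554%) and 163 lower (1.53%). Of 18 other basal genes, 3 were past 2-fold higher and 0 lower, with a median of 0.34. Of 17 luminal genes other than Psca and Krt4, 7 were lower in the members and 0 higher, with a median of -0.47. Krt4 was at 43.9 against 382 CPM, and Psca was found in 16.1% against 55.4% of barcodes thinned to 5000 UMIs. Of 8 squamous and urothelial genes not used by the rule, 5 were lower in the members and 0 higher, with a median of -1.31. Because the clause picked the left-out barcodes on such genes, genes that go with them had to differ. This count describes the sets without testing them. The clause rests on numbers of UMIs, and the left-out set was deeper, with a median of 18190.5 against 12130.0 UMIs. Mal, a membrane raft protein, was at 11.6 against 202 CPM, Areg at 45.1 against 333 CPM and Ivl at 41.7 against 235 CPM. The part of luminal RNA in these differences was not tested. Higher in the members were Grp, a bombesin-type peptide, at 139.9 against 20.4 CPM, the metallothionein Mt2 at 759.9 against 259 CPM and the transcription factor Maf at 116 against 36.9 CPM. Over all 1442 members against all 201 left-out barcodes, 0.538% of 13205 genes were past 2-fold, 0.265% higher and 0.273% lower.

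The same keratin rule found 148 of 1995 ventral barcodes, 7.42% (6.31% to 8.66%), with a median of 5286 UMIs. Of these, 107 were Krt5/Krt14 barcodes (72.3%) and 0 of the 107 held luminal RNA by the Psca and Krt4 measure, which allows a share of up to 2.80% at 3 counts of the total (the exact interval reaches 3.39%). That measure uses proximal luminal genes and at least 10 UMIs, and the 107 had a median of 5025 UMIs. The 0 is therefore not a like measure to the proximal share and does not cover other luminal RNA. Trp63 was found in 35.5% of the 107 (26.5% to 45.4%), and after thinning to 5000 UMIs in 31.5% of 54 (19.5% to 45.6%), an interval that overlaps the proximal one. Between all members of both libraries 17.4% of 12856 genes were past 2-fold (12.5% higher and 4.81% lower in the proximal members; 72.3% of those past it were higher, and 47.5% with totals without mitochondrial, ribosomal and secretory genes), and between the Krt5/Krt14 barcodes 26.5% of 10228, with 1904 higher in the proximal library (18.6%) and 809 lower (7.91%), a share of 70.2% higher among those past 2-fold. The median log2 ratio of all genes was 0.20. With totals taken without mitochondrial, ribosomal and secretory genes this median was 0.05, and 1868 genes were higher and 1563 lower (54.4% higher). Of 129 listed genes past 2-fold, 121 were still past it under that scaling.

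Among basal genes, Dst, Sfn, Col17a1 and Lgals7 were past 2-fold higher in the proximal Krt5/Krt14 barcodes, with 11 of 18 higher, 0 lower and a median of 1.21. The level of Dst was 953 CPM (934 to 971), set against a ventral 92.8 CPM (69.3 to 122), and that of Sfn 2769 CPM, set against 271 CPM (229.9 to 318). Trp63, Krt17 and Perp were not past 2-fold, with log2 ratios of -0.45, 0.31 and -0.27. Of 12 EGF-family genes 7 were higher and 0 lower, Nrg1 at 613 against 80.3 CPM and Egfr at 232 against 46.4 CPM. Klf5, an epithelial zinc finger factor, was at 468 CPM against 48.2 CPM (31.8 to 70.1), while the Notch target Hes1 was lower at 564 against 1937 CPM (1824 to 2056). Hes1 had per-barcode medians of 382 and 1271 CPM, with single barcodes overlapping.

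Of 10 desmosome genes, 5 were past 2-fold higher in the proximal barcodes and 0 lower, with Dsp, the desmosomal plaque protein, at 676 CPM (660.2 to 692) and a ventral level of 159 CPM (128 to 196). Of 12 genes reported for prostate progenitors, 7 were higher and 0 lower, with the surface protein gene Ly6a (Sca-1) at 410.4 against 51.8 CPM. Of 13 S100, annexin and calpain genes, 6 were higher and 1 lower, with Anxa1, an anti-inflammatory annexin, at 1117 against 105 CPM. Of 20 immediate-early genes, 5 were higher and 3 lower: Fosl1 was at 239 against 21.4 CPM and Myc at 195 against 37.5 CPM, whereas Fos was at 968 against 2742 CPM. Contractile genes had 5 of 11 lower and 2 higher, with Tpm2 at 157 against 434 CPM (381 to 492). Hoxb13, a posterior homeobox factor, was the 1 transcription factor of 29 past 2-fold lower, at 58.9 against 254 CPM (214 to 299), and 13 were higher.

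Several secreted and matrix genes were lower in the proximal barcodes. Dcn was at 1363 against 5185 CPM (4998 to 5377), Sparc at 104 against 437 CPM, Lcn2 at 155 against 1027 CPM (944 to 1114), the chemokine Cxcl14 at 34.2 against 377 CPM and the transglutaminase Tgm2 at 79.8 against 777 CPM. The 14 listed fibroblast genes summed to 1483 CPM in the proximal and 5635 CPM in the ventral barcodes, of which Dcn and Sparc made up nearly all. In the ventral barcodes 8 of the 14 had 0 UMIs, among them the fibroblast markers Pdgfra and Lum, which stood at 1.32 and 0.284 CPM in the proximal barcodes, and the part of fibroblast RNA in these levels was not tested. The ventral secretions Sbp and Spink1, at 8454 and 7873 CPM in the ventral barcodes, stood at 128091 and 98474 CPM in 27 ventral macrophage barcodes. Secretory products made up 22.7% of the UMIs of those macrophage barcodes, so they are no clean measure of background. The part of free RNA in these levels was not tested. Psca, at 319.9 CPM in the proximal barcodes, had 0 UMIs in the ventral ones. Against a floor of 3 UMIs over that group, 5.36 CPM, it was 59.7-fold higher. This is not a lower bound, because the exact interval for 0 UMIs reaches 6.59 CPM. The proximal level was that of a few barcodes: Psca was found in 28.5% of the proximal ones, its median per barcode was 0, and the 37 with luminal RNA held 87.5% of its UMIs. Without these 37, Psca was at 44.7 CPM. The nuclear RNA Neat1 (1678 against 48.2 CPM) and Cmss1 (2041 against 37.5 CPM) were among the genes with the highest ratios, and kit version cannot be told apart from region for any of these genes.

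**Figure D5:**
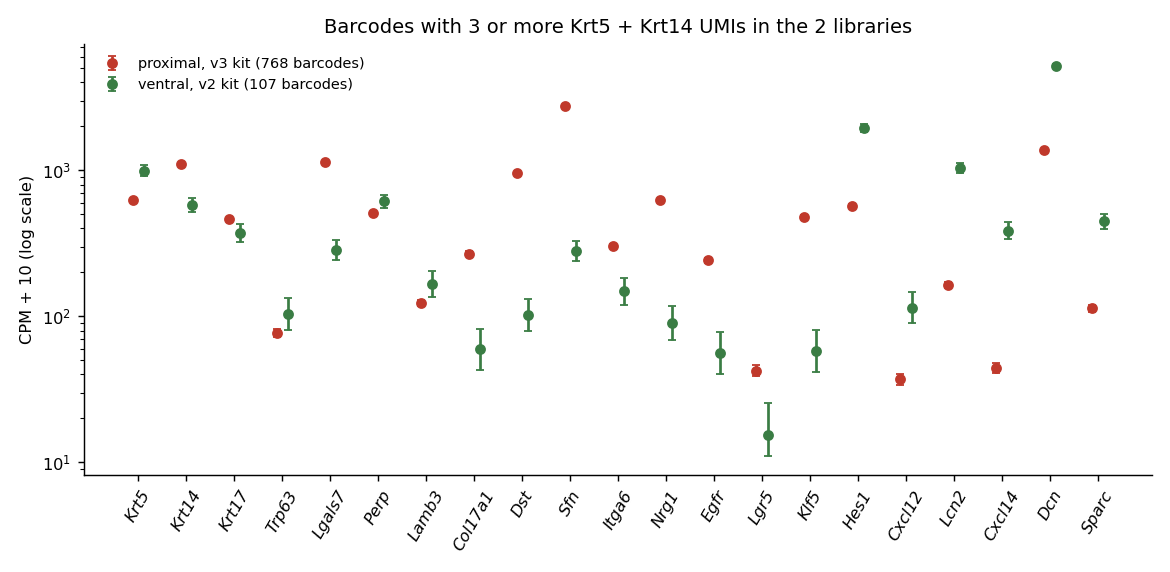
Level of 21 genes (CPM plus 10, log axis) in the 768 proximal and 107 ventral Krt5/Krt14 barcodes, with exact 95% Poisson intervals. Dst, Sfn, Nrg1 and Klf5 lie higher in the proximal set and Dcn, Lcn2, Cxcl14 and Hes1 in the ventral set, while the Trp63 levels are 66.7 and 94.6 CPM.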

How the data were processed

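The deposited matrices give UMI counts of 32285 genes by barcode. Per the file headers, Cell Ranger 7.0.0 made them, and mm10 is the build named in the submitters' processing notes. No normalization by the authors is recorded. No column of another sample was present (0). Gene positions are from GENCODE M21, which held 32158 of the identifiers.

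Barcodes with fewer than 500 genes or over 10% mitochondrial UMIs were removed. Counts were summed over each set of barcodes and scaled to CPM, and genes with at least 50 UMIs over both sets were compared with a pseudocount of 10 CPM. Folds on that scale understate changes of low genes. Beside listed genes, the text names genes among the 10 highest and 10 lowest ratios per comparison with at least 100 UMIs in the higher set and intervals that do not overlap, the 10 leading genes per sub-cluster found in at least 25% of its barcodes, and the 15 most variable genes. That rule left out haemoglobin, antigen receptor, mitochondrial and ribosomal protein genes and gene models with Gm or Rik names. Haemoglobin and concentration in single barcodes were looked at after values were seen.

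Sub-clusters came from scanpy 1.11.5 (2000 variable genes, 30 principal components, 15 neighbours, Leiden resolution 0.5, seed 0) with igraph 0.11.9, numpy 2.4.6, scipy 1.17.1 and Python 3.11.15. Thinning to 5000 UMIs was without replacement. Doublets were neither called nor removed. The ratio and spread steps were tested on simulated data. The members and gene lists were chosen with earlier results of these data known, and the division by Krt5 and Krt14 UMIs was added after seeing the data. Alternatives covered the keratin, mitochondrial and collagen limits, deep, luminal-RNA and secretory-rich barcodes, scaling, pseudocount, UMI minimum, clustering and thinning. Some listed genes are not reported here.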

Additional observations from a re-analysis of the deposited data

How the results depend on the processing

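Depth, 1 library per region, uncalled doublets and free RNA limit these results, and low genes are understated by the pseudocount. No paired analysis was possible because each group had 1 library and the labels give no replicate numbers. The cause of each movement below was not tested.

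The share of keratin-selected barcodes (38.9%) was 37.0% with at least 10 keratin UMIs, 26.0% with keratins at 0.2% of UMIs, 23.1% without members with luminal RNA, 43.0% without barcodes over 5% secretory RNA and 20.7% with only members of at least 3 Krt5 plus Krt14 UMIs. Against luminal barcodes, all members had 256 genes past 2-fold, and 584 with keratins at 0.2%, 996 without luminal RNA, 457 from mean per-barcode CPM, 886 with a pseudocount of 1 and 1115 with at least 3 Krt5 plus Krt14 UMIs. Against left-out Ly6d barcodes, 71 became 110, 516, 404 and 222 with keratins at 0.2%, without luminal RNA, with a pseudocount of 1 and with at least 3 such UMIs. Krt15-only against luminal barcodes (28) gave 79 with keratins at 0.2%, 234 without luminal RNA, 54 from mean CPM and 183 with a pseudocount of 1.

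A pseudocount of 1 also gave 5366 in place of 2232 genes (all members, proximal against ventral), 2302 in place of 903 (Krt5/Krt14 against Krt15-only), 2789 in place of 1115 (against luminal), 4951 in place of 2713 (proximal against ventral Krt5/Krt14) and 793 in place of 222 (against Ly6d). Totals without mitochondrial, ribosomal and secretory genes moved all members, proximal against ventral, from 72.3% to 47.5% higher, 1374 higher and 1516 lower. Resolutions of 1 and 0.3 gave 10 and 3 sub-clusters in place of 6, and thinning to 2000 UMIs gave 136 variable genes in place of 484.

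Directions turned for a few named genes. Msmb against luminal barcodes had log2 ratios of 1.27 without the deepest 5% of barcodes and 0.18 without secretory-rich ones over all members, and 0.10 and 0.21 in Krt5/Krt14 barcodes; against Krt15-only it had 0.05 without secretory-rich ones. Wfdc3 over all members had 0.16 in both settings. Ivl, Krt15-only against luminal, had -0.16 without members with luminal RNA. Of other listed genes, Acta2, Sbp, Spink1, Defb50 and haemoglobins turned under 1 or more alternatives. Without members with luminal RNA, so did Cldn3 over all members, proximal against ventral (1.37 to -0.08), and Cldn10 against left-out Ly6d barcodes (1.32 to -0.47). Acta2 stood at -0.18 in place of 1.61 (Krt5/Krt14 against Krt15-only) with a 5% mitochondrial limit.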
